A study of Mus musculus with 32 samples.

Results

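Uptake, breakdown, synthesis and storage of glucose were followed through 9 genes in the liver and in 3 fat depots of mice without the orphan receptor GPR146. The 9 genes, taken by their symbols from the gene column of each deposited table, were *Slc2a2*, *Hk2*, *Pklr*, *Pcx*, *Pck1*, *Fbp1*, *G6pc*, *Gys2* and *Pygl*, out of 24646 named genes in each table. Every one of them had a row, from 1 probe set, in all 4 tissues.

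The study took the liver, the white fat of the epididymal depot (eWAT) and of the inguinal depot (iWAT), and brown fat (BAT) from male whole-body knockout mice (*Gpr146*-/-, KO) and wild-type mice (*Gpr146*+/+, WT). All mice were 20 weeks old, had eaten a high-fat diet over 3 months and had fasted overnight before the tissues were taken, so that no group on chow and no fed group is part of the comparison. The gene was missing in every cell and from birth, which leaves the tissue in which the loss acted unresolved in this model. Each genotype had 4 mice per tissue, 32 Affymetrix arrays in all, and the mouse is the replicate; values are log2 intensities as deposited, and a difference of 1 on this scale is a change of 2-fold.

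Glucose enters cells through transporters and is trapped as glucose 6-phosphate, which then runs down glycolysis to pyruvate or is stored as glycogen. During a fast the liver reverses the flow: pyruvate is carboxylated to oxaloacetate, turned into phosphoenolpyruvate and brought back up to glucose, and liver glycogen is broken down. Fat cells lack the last steps of that route, yet use its first enzymes to make the glycerol 3-phosphate that holds fatty acids as triglyceride (glyceroneogenesis), and to supply oxaloacetate for fatty acid synthesis.

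The labels were checked on the arrays first. *Gpr146* was lower in KO than in WT mice in each tissue without overlap, by 1.77 (log2) in liver, 1.53 in eWAT, 1.55 in iWAT and 1.16 in BAT, with limma adjusted p = 6.55e-06, 0.00823, 0.221 and 0.0727. The titles of the liver KO samples name both genotypes, and the group was taken from the source and genotype fields. The depot tables named visceral and inguinal were read as eWAT and iWAT; *Wt1*, a marker of visceral fat, was at 4.47 to 5.23 in the first and at 3.10 to 3.57 in the second, and *Tbx15*, a marker of subcutaneous fat, at 1.95 to 2.26 and 4.54 to 5.56. The albumin gene *Alb* was at 11.85 or above in each liver array, and *Ucp1*, the uncoupling protein of brown fat, at 11.03 or above in each BAT array. WT replicate 1 stood apart in fat: for *C130050O18Rik*, the transcript with the smallest p in liver, it read 6.45 in eWAT, 6.98 in iWAT and 5.85 in BAT, against at most 4.12, 4.29 and 3.43 in the other WT arrays and at least 7.0, 7.68 and 6.14 in KO arrays. In liver that mouse number read 3.77, among the other WT arrays. *Gpr146* itself was lowest of the WT arrays in WT replicate 1 in each fat depot, at 5.32, 5.37 and 5.10, and above every KO array. Whether these 3 arrays hold the genotype of their label was not tested, and calls that change without WT replicate 1 are stated below.

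In eWAT 4 of the 9 genes were higher in KO mice after correction over all genes, *Pck1*, *Pcx*, *Pygl* and *Hk2*, each by about 1.82- to 2.42-fold, and none was lower. No member passed in liver, iWAT or BAT. The upstream sequences of those 4 genes are shown first, because these genes rose together in the same depot. They are the 250 bases before the RefSeq start (build GRCm38.p6), read 5′ to 3′ on the strand of the gene, and capitals mark matches on either strand to ACGTCA (the core of a cAMP response element, to which CREB binds), CACGTG (an E-box, bound by basic helix-loop-helix factors), GTAAACA (a forkhead motif, bound by FOXO proteins) or CCAAT.

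*Pck1*, plus strand, chr2:173152823-173153072: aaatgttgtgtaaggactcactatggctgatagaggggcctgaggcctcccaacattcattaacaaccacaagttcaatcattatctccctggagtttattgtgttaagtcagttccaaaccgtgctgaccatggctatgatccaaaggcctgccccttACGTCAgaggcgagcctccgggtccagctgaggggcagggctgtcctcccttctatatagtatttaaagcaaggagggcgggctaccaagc

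*Pcx*, plus strand, the first of 2 starts, chr19:4510222-4510471: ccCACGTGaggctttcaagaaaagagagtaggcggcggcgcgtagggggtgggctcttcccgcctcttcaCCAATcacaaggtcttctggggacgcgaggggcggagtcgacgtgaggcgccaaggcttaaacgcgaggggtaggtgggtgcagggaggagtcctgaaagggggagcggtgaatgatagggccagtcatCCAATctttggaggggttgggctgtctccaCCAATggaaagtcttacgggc

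*Pygl*, minus strand, chr12:70227684-70227933: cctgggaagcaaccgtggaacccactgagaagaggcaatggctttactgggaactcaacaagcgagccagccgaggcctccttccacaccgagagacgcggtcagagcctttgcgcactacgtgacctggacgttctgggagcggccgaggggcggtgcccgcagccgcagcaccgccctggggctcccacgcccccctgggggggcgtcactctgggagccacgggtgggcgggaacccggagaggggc

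*Hk2*, minus strand, chr6:82774455-82774704: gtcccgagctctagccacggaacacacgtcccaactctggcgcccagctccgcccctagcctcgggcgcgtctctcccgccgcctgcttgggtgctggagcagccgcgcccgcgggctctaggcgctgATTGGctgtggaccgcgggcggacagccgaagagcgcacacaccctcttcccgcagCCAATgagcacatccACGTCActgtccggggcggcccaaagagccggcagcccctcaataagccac

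ACGTCA lay in *Pck1*, with its first base at -91 from the start, and in *Hk2*, at -51. This 6-base word is in 6.47% of the 32851 RefSeq promoter windows of that length. The window printed for *Pcx* held CACGTG at -248, a word in 6.02% of all windows, and 3 copies of CCAAT. *Hk2* had 2 copies of CCAAT, which 33.8% of windows hold. The window of the second *Pcx* start, chr19:4594069-4594318, is not printed and held none of the words. Which start is used in eWAT was not tested. GTAAACA, in 3.17% of windows, was in none of the 4, and *Pygl* held none of the words. Of the 9 genes 8 had a RefSeq promoter entry, and *Gys2* had none. A match in such a window is a run of letters and does not show that a factor binds there.

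**Figure D1:**
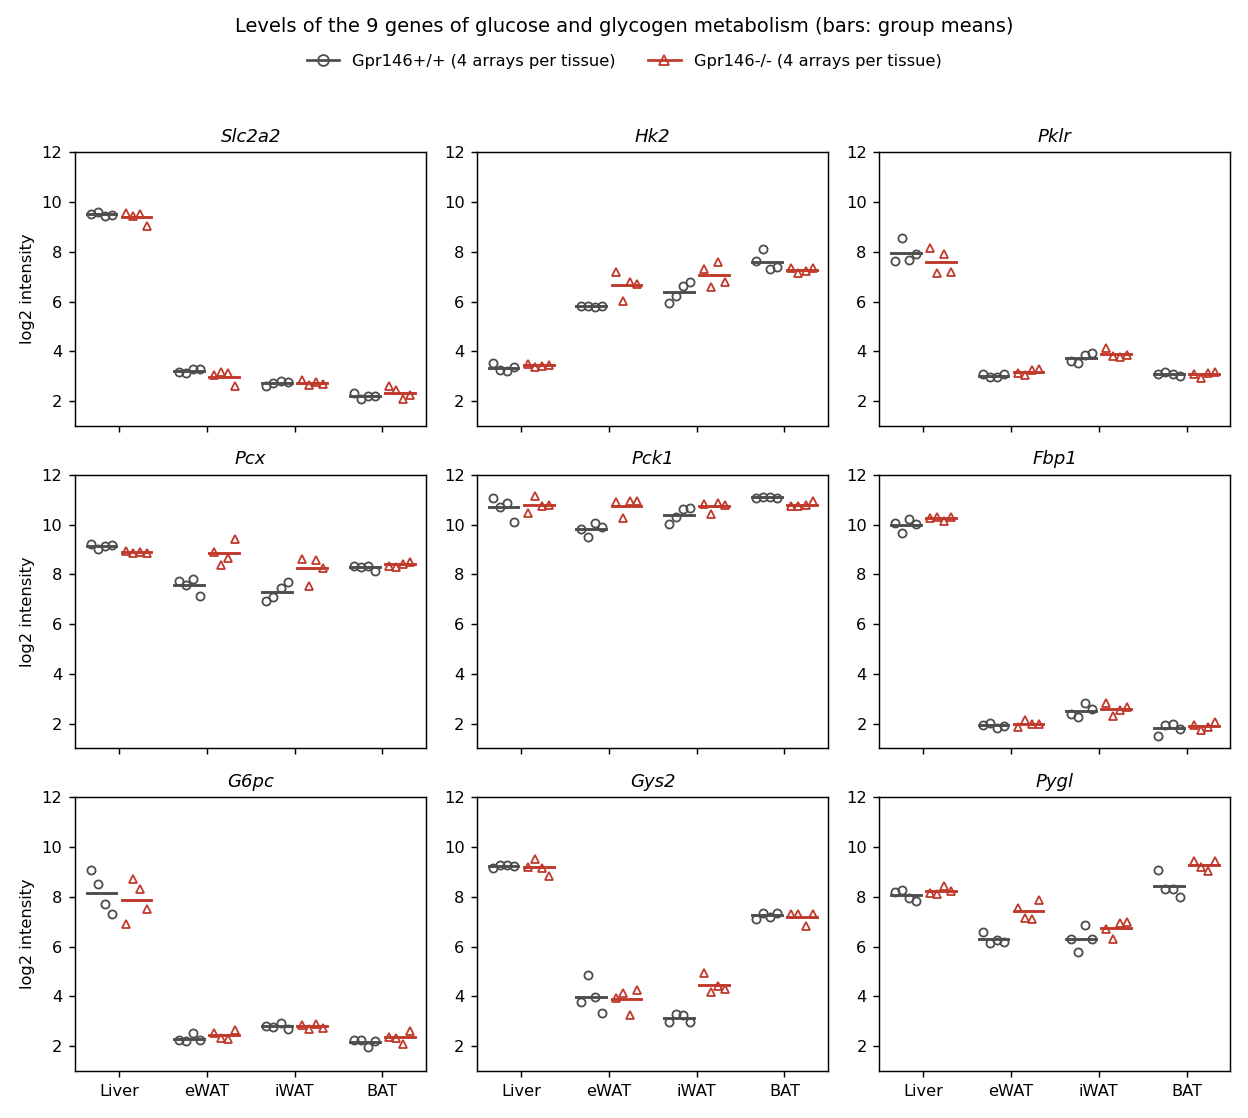
log2 intensity (vertical axis) of each of the 9 genes on every array by tissue; circles are WT and triangles KO arrays, 4 each, and bars are group means. The KO arrays lie above all WT arrays for *Hk2*, *Pcx*, *Pck1* and *Pygl* in eWAT and for *Gys2* in iWAT, and below them for *Pcx* in liver and *Pck1* in BAT.

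The tissues differed in which of the genes they expressed, a pattern that the KO mice shared in its main outline. Highest in liver in both genotypes were *Slc2a2*, *Pklr*, *Fbp1*, *G6pc* and *Gys2*, with no liver array overlapping the next tissue. The WT mean in liver stood above that of the lowest tissue by 8.19 (log2) for *Fbp1*, 7.31 for *Slc2a2*, 6.13 for *Gys2*, 6.00 for *G6pc* and 4.92 for *Pklr*. Of these, *Gys2* had a clear second place in BAT, at 7.25 ± 0.11 (SD, n = 4) in WT mice. *Hk2* had the opposite order, BAT, iWAT, eWAT and then liver, and in WT mice no neighbours in that order overlapped. *Pygl* was highest in BAT and liver, which overlapped in WT mice, and lower in the white depots, which also overlapped in WT mice.

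*Pck1* was high everywhere, with a WT mean at percentile 99.6 of all genes or above in each table. Its order in WT mice was BAT, liver, iWAT and eWAT, every neighbour overlapped the next, and the span between the highest and lowest tissue mean was 1.28 in WT and 0.07 in KO mice. *Pcx* ran from liver to BAT, eWAT and iWAT in WT mice over 1.85, with liver and BAT apart from their neighbours, and in KO mice the span was 0.63 and all neighbours overlapped. The 4 tables were scaled separately, with table medians of 3.02 in liver, 3.15 in eWAT, 3.69 in iWAT and 2.84 in BAT, so these orders are descriptions without a test. At the low end, *G6pc* and *Fbp1* lay below the table median in all 3 fat depots, *Slc2a2* in iWAT and BAT, *Pklr* in eWAT and *Gys2* in iWAT. The tables hold no detection calls, so such a level is not shown to be above background, and a change from it is a change in intensity.

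Pyruvate carboxylase (*Pcx*), the mitochondrial enzyme that makes oxaloacetate from pyruvate, had the largest change of the 9 genes in eWAT. WT mice read 7.72, 7.57, 7.83 and 7.14 in replicates 1 to 4, and KO mice 8.90, 8.39, 8.65 and 9.41. All 4 KO arrays lay above all WT arrays. The difference was 1.27 (log2, SE 0.22, 95% interval 0.78 to 1.77), or 2.42-fold, with a limma adjusted p = 0.0103.

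*Pck1* encodes the cytosolic phosphoenolpyruvate carboxykinase that takes the next step. In eWAT its log2 intensity was 9.81, 9.51, 10.05 and 9.91 in WT mice and 10.92, 10.25, 10.93 and 10.96 in KO mice. Again the genotypes did not overlap, and KO replicate 2 lay between the WT arrays and the other KO arrays. The KO mean was higher by 0.94 (SE 0.18, 95% interval 0.55 to 1.34; 1.92-fold; limma adjusted p = 0.0117). The later enzymes of the route back to glucose, fructose-1,6-bisphosphatase (*Fbp1*) and the glucose-6-phosphatase catalytic subunit (*G6pc*), were below the table median in this depot and differed by 0.06 and 0.15 (adjusted p = 0.675 and 0.411).

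Glycogen phosphorylase of liver type (*Pygl*), which releases glucose 1-phosphate from glycogen, read 6.59, 6.15, 6.27 and 6.17 in WT and 7.56, 7.16, 7.13 and 7.88 in KO eWAT. No KO array reached down to the highest WT array, which was replicate 1. The rise was 1.14 (SE 0.17, 95% interval 0.74 to 1.53; 2.20-fold; limma adjusted p = 0.00877). Hexokinase 2 (*Hk2*), the insulin-responsive enzyme of fat and muscle that traps glucose as its 6-phosphate, was nearly constant among WT mice, at 5.81, 5.81, 5.78 and 5.83. KO mice read 7.18, 6.04, 6.79 and 6.69, so that all lay higher, KO replicate 2 by the smallest margin. *Hk2* rose by 0.87 (SE 0.20, 95% interval 0.42 to 1.31; 1.82-fold; limma adjusted p = 0.020).

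The other members gave no call in eWAT. The liver-type glycogen synthase gene *Gys2* read 3.32 to 4.84 in WT and 3.26 to 4.24 in KO mice (difference -0.09, 95% interval -0.80 to 0.61). The liver-type pyruvate kinase gene *Pklr* differed by 0.16 (adjusted p = 0.209). *Slc2a2*, the gene of the low-affinity glucose transporter GLUT2, differed by -0.24 (adjusted p = 0.234).

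Among all 24646 genes of eWAT, 4.57% were called higher and 10.7% lower, and in 8.63% every KO array lay above every WT array, and below in 13%. Against that, 4 of 9 members were called higher and did not overlap, and 0 were called lower. The 9 genes were chosen with earlier results of these data known, so this comparison is no test of them as a set. The median log2 change of the 9 was 0.16, beside 0.03 over all genes. Without KO replicate 2 the same 4 genes were called, with changes of 1.12 for *Pck1*, 1.42 for *Pcx*, 1.23 for *Pygl* and 1.08 for *Hk2*. *Hk2* passed narrowly: without WT replicate 1, 2, 3 or 4, or KO replicate 4, its limma adjusted p was 0.0510, 0.0597, 0.0534, 0.0566 and 0.0524, and the count fell to 3. By the methods' t-test, adjusted over all genes, the 4 had adjusted p from 0.0645 to 0.0869 and 0 were called.

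**Figure D2:**
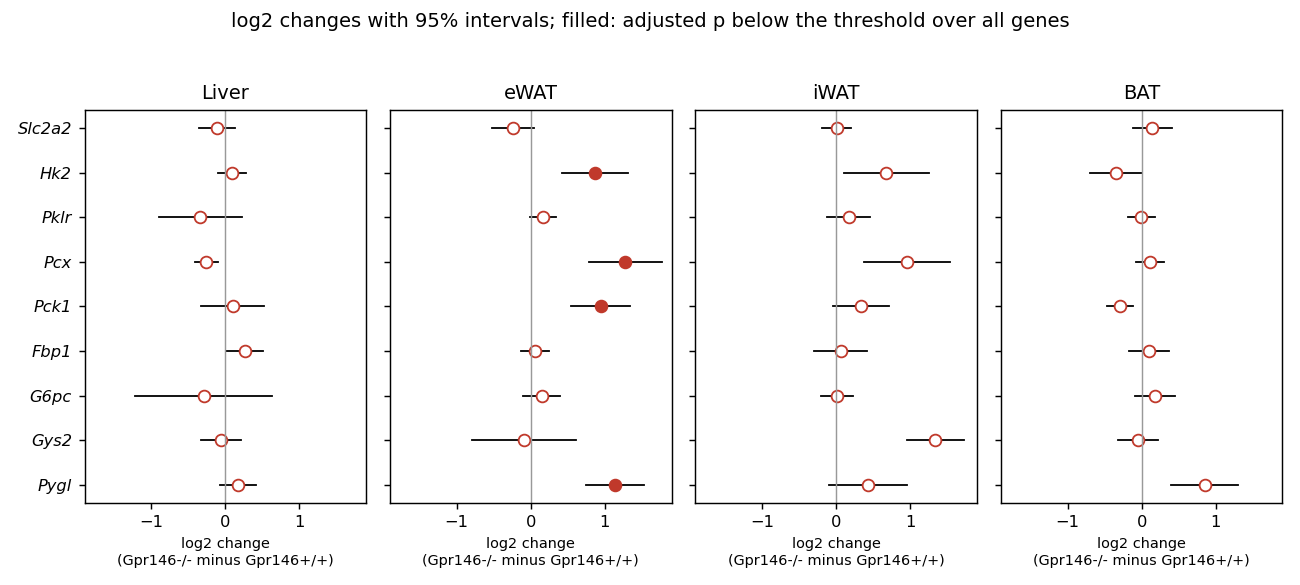
log2 change of each gene, KO minus WT (horizontal axis), by tissue, with 95% intervals from limma; filled points have an adjusted p below 0.05 over all genes. The filled points are *Hk2* at 0.87, *Pcx* at 1.27, *Pck1* at 0.94 and *Pygl* at 1.14, all in eWAT, while *Gys2* in iWAT at 1.34 is the largest change of all and is not filled.

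The cell make-up of eWAT also differed between the genotypes on the arrays. All 8 macrophage markers were called lower in KO mice, with summed linear intensities of 4755 to 5367 in WT mice and of 977, 3932, 1724 and 1172 in KO replicates 1 to 4. All 6 fibroblast markers were lower too (sums 2668 to 3282 against 1419 to 2533). Of 6 adipocyte markers, *Adipoq*, *Plin1*, *Cidec*, *Fabp4* and *Lipe* were higher and the leptin gene *Lep* lower, and their sum was 6022 to 6181 in WT and 6435 to 7377 in KO mice. Their log2 changes were 0.65 for *Plin1*, 0.63 for *Lipe*, 0.51 for *Adipoq*, 0.30 for *Cidec*, 0.24 for *Fabp4* and -0.98 for *Lep*. KO replicate 2, the array with the macrophage level nearest to WT, had the lowest *Pck1*, *Pcx* and *Hk2* of the KO arrays. The part of cell make-up in these changes was not tested, and in such bulk tissue fewer cells of a type and less RNA per cell cannot be told apart.

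**Figure D3:**
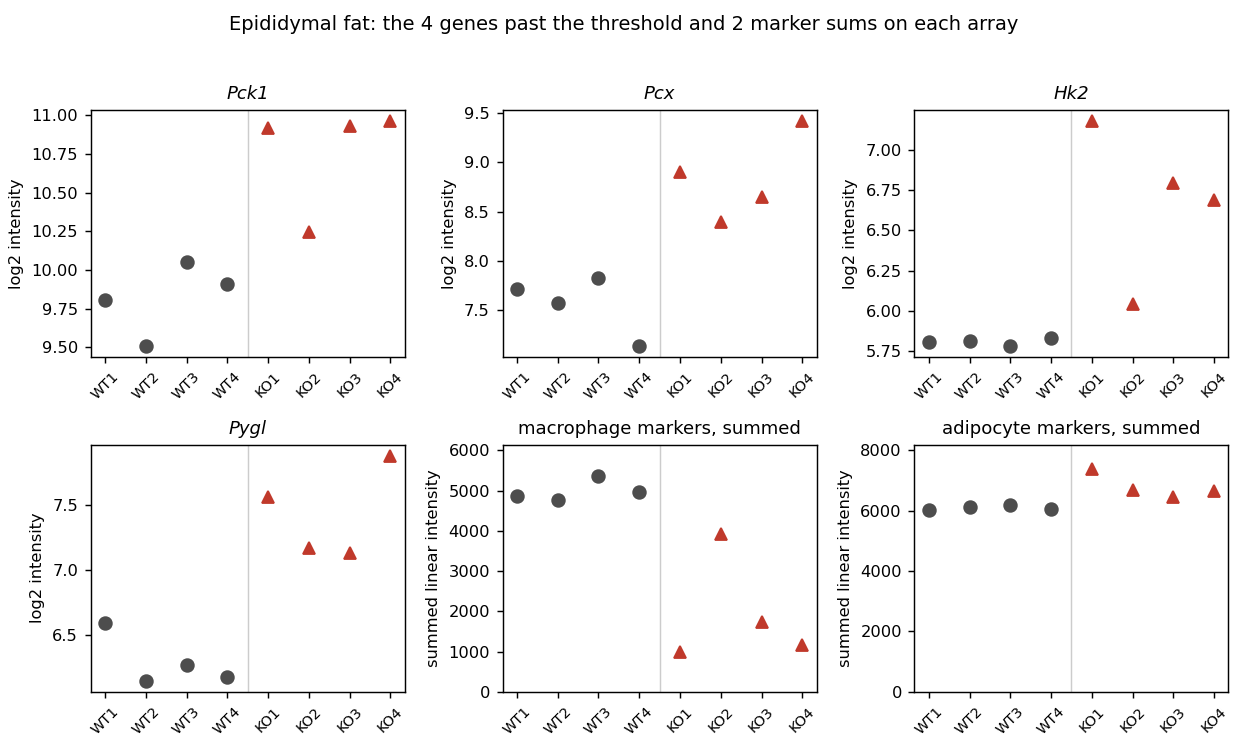
eWAT array by array: log2 intensity of *Pck1*, *Pcx*, *Hk2* and *Pygl*, and the summed linear intensities of 8 macrophage and 6 adipocyte markers (vertical axes); WT1 to KO4 are the replicates. KO2 lies closest to the WT arrays for *Pck1* and *Hk2* and for the macrophage sum of 3932.

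The neighbours of these genes in their pathways were taken from 7 lists with 123 other genes, also chosen with earlier results known. In eWAT 24 of the 123 were called higher and 17 lower by limma, where 4.57% of all genes were called higher and 10.7% lower. The median over the 123 was 0.11, beside 0.03 over all genes. With 1 array left out there were 58 calls without KO replicate 2, 40 without KO replicate 3, 14 without WT replicate 2 or 4, 19 to 21 without WT replicate 3 or KO replicate 1 or 4, and 23 without WT replicate 1. Those 23 were all among the 41, and of the genes named below *Gys1*, *Gbe1*, *Ppp1r3c*, *Phkb*, *Gyg*, *Ugp2*, *Pdk2*, *Shpk*, *Akt2*, *Txnip* and *Mlx* were not among them. Calls over all 24646 genes of eWAT moved too. They were 1126 higher and 2632 lower with all arrays, 1924 and 3505 without KO replicate 2, and 380 and 1068 without WT replicate 2.

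For glucose entry, 2 of 12 genes rose and 2 fell. *Slc2a4*, the insulin-responsive transporter GLUT4, rose by 0.94 (adjusted p = 0.0177), and *Hk3*, a hexokinase of myeloid cells, fell by 1.79 (adjusted p = 0.0178). *Hk3* was high on the arrays with a high macrophage level: it was 5.56 to 5.68 in WT mice, 5.27 in KO replicate 2 and 3.25, 3.52 and 3.27 in the other KO mice. In glycolysis 3 of 24 rose and 5 fell. The largest rise was that of *Pfkfb1* (1.61, adjusted p = 0.0103), a bifunctional enzyme that sets the fructose 2,6-bisphosphate level, and the largest fall that of *Slc16a1* (-0.96), the lactate and pyruvate carrier MCT1.

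Among 17 genes of gluconeogenesis and its substrate entry, 2 rose and 3 fell, and they held the widest contrast of the lists. *Gpt2*, the mitochondrial alanine aminotransferase that yields pyruvate, read 5.69 to 6.27 in WT and 7.06 to 8.18 in KO mice and rose by 1.72 (SE 0.25, adjusted p = 0.00823). *Got1*, the cytosolic aspartate aminotransferase, read 6.42 to 6.93 in WT mice and 4.40, 6.00, 4.95 and 4.72 in KO mice, a fall of 1.68 (SE 0.30, adjusted p = 0.0109). Glycerol kinase (*Gk*) fell as well, by 0.85.

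Glycogen, the longest list, had the most calls, 8 of 26 higher and 3 lower, with a list median of 0.17. That median was higher for pyruvate dehydrogenase control (0.26) and the regulators (0.24) and lower in the other lists. The genes that rose were *Phkg1* (1.16), a catalytic subunit of phosphorylase kinase, *Pygb* (1.11), the brain-type phosphorylase, the laforin gene *Epm2a* (1.01), the muscle-type synthase *Gys1* (0.96), the branching enzyme *Gbe1* (0.81), *Pgm2* (0.66), the glycogen-targeting phosphatase subunit *Ppp1r3c* (0.53) and *Phkb* (0.34). They thus included enzymes of synthesis and of breakdown alike. *Phkg1* rose with overlapping groups, from a WT mean of 3.32, near the table median of 3.15. *Pgm1* (-0.93), a phosphoglucomutase gene under the symbol on the array, the glycogenin *Gyg* (-0.70) and *Ugp2* (-0.48), which makes UDP-glucose, fell.

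In the control of pyruvate dehydrogenase 3 of 11 rose and 1 fell. *Pdk2* rose by 0.73 and *Pdk4*, the kinase induced by fasting, fell by 1.17 with overlapping groups (adjusted p = 0.0316). Of 9 pentose phosphate genes, the sedoheptulose kinase *Shpk* rose by 0.64, and *Pgd* (-0.74) and *G6pdx* (-0.54), the NADPH-forming dehydrogenases, fell. The WT mean of *Shpk*, 2.98, was below the table median, so it is not shown to be above background. Of 24 regulators 5 rose and 1, *Mlx*, fell by 0.59. The risers were *Cebpa* (1.13, adjusted p = 0.00823), a transcription factor of adipocyte differentiation, the insulin receptor *Insr* (0.75), *Irs1* (0.64) and *Akt2* (0.62) of insulin signaling, and *Txnip* (0.35).

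**Figure D4:**
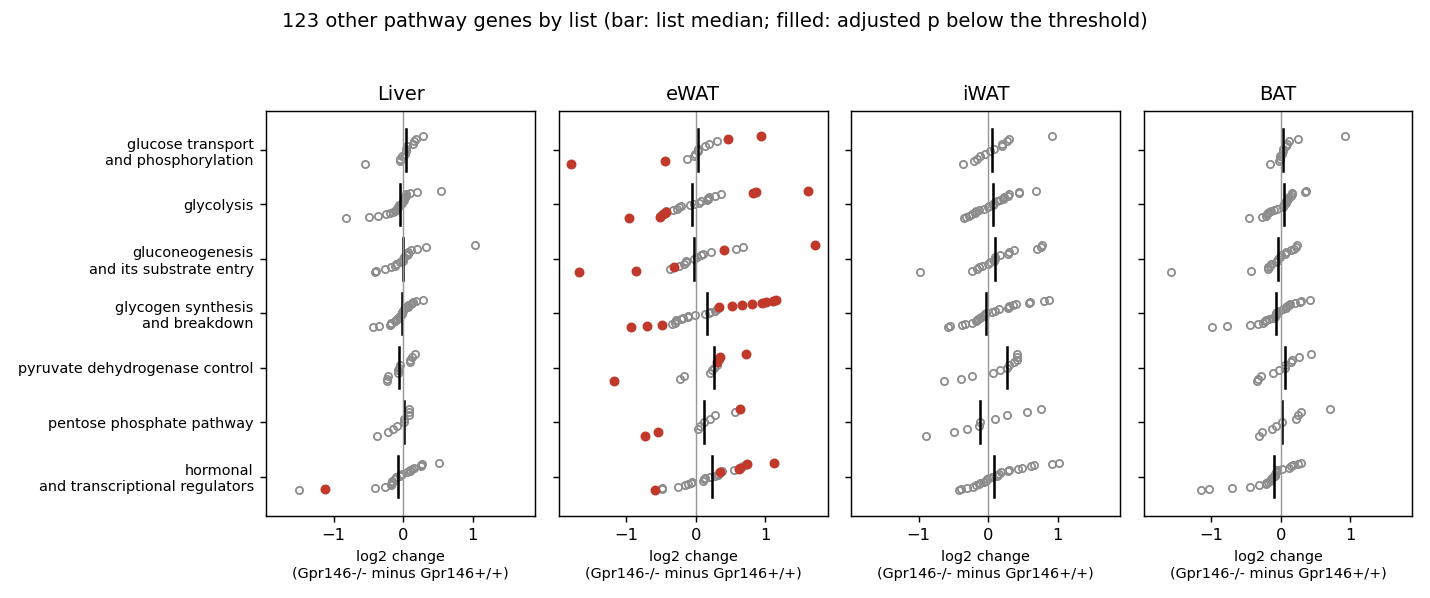
log2 change, KO minus WT (horizontal axis), of 123 pathway genes by list and tissue; filled points have an adjusted p below 0.05 and black bars are list medians. The eWAT panel holds 41 filled points, liver has 1 (*Txnip*, at -1.13), and iWAT and BAT have none.

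In liver, the organ in which all 9 genes lay above the table median, no member was called, beside 0.162% of all genes called higher and 0.499% lower. The members had a median of -0.06 (log2), against 0.01 for all genes. At unadjusted limma p below 0.05, 1 member was higher and 1 lower, beside 5.79% and 7.48% of all genes.

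*Pcx* was the member furthest from 0 by its error. It read 9.20, 9.02, 9.16 and 9.18 in WT and 8.92, 8.84, 8.88 and 8.87 in KO livers. All 4 KO livers lay below all WT livers, as they did for 4.16% of all genes, and 3.62% had them all above. The difference was -0.26 (SE 0.07, 95% interval -0.41 to -0.11; limma adjusted p = 0.132), opposite in sign to that in eWAT, and the exact permutation p was 0.0286, the smallest that 4 against 4 mice allows.

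The rest of the gluconeogenic route overlapped between genotypes. *Pck1* read 11.08, 10.72, 10.86 and 10.11 in WT and 10.48, 11.14, 10.74 and 10.78 in KO livers (difference 0.10, 95% interval -0.33 to 0.52). *Fbp1* read 10.08, 9.66, 10.22 and 10.02 in WT and 10.27, 10.33, 10.13 and 10.31 in KO livers (difference 0.26, SE 0.11, adjusted p = 0.345), and KO replicate 3 kept the groups from separating. *G6pc* spread most widely of all, from 7.33 to 9.07 in WT and 6.91 to 8.73 in KO livers, and its interval of -1.22 to 0.63 leaves room for changes of 2-fold downward.

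None of the storage and glycolytic genes of the liver passed, and their intervals all held 0. *Gys2* differed by -0.06 (95% interval -0.32 to 0.21), *Pygl* by 0.17 (-0.07 to 0.42), *Slc2a2* by -0.11 (-0.35 to 0.12) and *Hk2*, close to the table median there, by 0.09 (-0.10 to 0.28). *Pklr* read 7.62 to 8.55 in WT and 7.16 to 8.14 in KO livers (difference -0.34, 95% interval -0.89 to 0.22). Of the 123 pathway genes 1 was called: *Txnip*, a glucose-responsive gene whose product restrains glucose uptake, read 6.58, 6.24, 6.89 and 6.39 in WT and 5.32, 5.56, 5.84 and 4.86 in KO livers. Every KO liver was lower, by 1.13 on average (SE 0.20, limma adjusted p = 0.0311), and the call was lost without WT replicate 1, 3 or 4 or KO replicate 1 or 4. Hepatocyte markers had no call (sums 11774 to 12801 in WT, 12556 to 13644 in KO). Of 4 endothelial markers 3 were called lower, and all 4 lay lower in every KO liver. *Dcn* (-2.06) of 6 stellate cell and fibroblast markers and *Cidec* (-2.08) of 6 adipocyte markers were called lower. None of either list was called higher. The macrophage sum was 238 to 375 in WT and 113 to 278 in KO livers. The part of these cells in the liver values was not tested.

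In iWAT no gene passed, so that 0% were called higher and 0% lower, while 3803 genes had an unadjusted p below 0.05. The 9 members all had a positive difference, with a median of 0.33 beside 0.02 for all genes, and 3 of them were higher at unadjusted limma p below 0.05, as were 7.09% of all genes, with 8.34% lower. For *G6pc*, *Fbp1* and *Slc2a2* the sign rests on differences of 0.01, 0.06 and 0.00 in genes below the table median, and it turned when the arrays were quantile-normalized.

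*Gys2*, the enzyme that extends glycogen chains in liver, had the smallest p of all genes in iWAT. It read 2.96, 3.29, 3.24 and 2.98 in WT and 4.94, 4.19, 4.41 and 4.28 in KO mice. The groups were separated by a gap from 3.29 to 4.19. Groups without overlap, at any size of gap, were found with KO above for 4.29% of genes and with KO below for 3.86%. The difference was 1.34 (SE 0.17, 95% interval 0.95 to 1.73; 2.53-fold), with unadjusted p = 2.4e-05 and limma adjusted p = 0.221. The WT mean, 3.12, was below the table median and at percentile 40.0 of all genes, so it is not shown to be above background and the fold is one of intensities. In eWAT, where *Gys2* was at 3.98 ± 0.64 (SD, n = 4) in WT mice, no such gap was seen.

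*Pcx* read 6.91, 7.10, 7.46 and 7.69 in WT and 8.61, 7.55, 8.58 and 8.26 in KO iWAT, and KO replicate 2 fell among the WT arrays. The difference was 0.96 (SE 0.26, 95% interval 0.38 to 1.54; limma adjusted p = 0.221). *Hk2*, at 5.94 to 6.80 in WT and 6.60 to 7.58 in KO mice, differed by 0.68 (SE 0.25, adjusted p = 0.275). *Pygl* differed by 0.43 (95% interval -0.10 to 0.96) and *Pck1* by 0.33 (-0.05 to 0.71), and *Pklr* by 0.17 (-0.12 to 0.46). KO replicate 2 was the lowest KO array for *Pck1*, *Pcx*, *Gys2*, *Pygl* and *Hk2*. Without it *Gys2* (1.43, limma adjusted p = 0.0395) and *Pcx* (1.19, adjusted p = 0.0427) passed, and 9 pathway genes did, in a fit that called 110 genes (0.446%) higher and 117 (0.475%) lower. None of the 123 passed with all arrays, while 23 were higher and 8 lower at unadjusted limma p below 0.05. Those with the smallest p were *Pygb* (0.80), *Srebf1* (1.02), the transcription factor SREBP-1 of lipogenic genes, and *Cebpa* (0.92), each with adjusted p = 0.221.

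The iWAT arrays differed in markers of other cells. The summed B cell marker intensity was 1799 and 1721 in WT replicates 1 and 2, 1384 in KO replicate 2 and 411 in KO replicate 4, and 65 to 90 in the others. The macrophage sum was 1668 to 2778 in WT mice and 1857 in KO replicate 2, and 736 to 934 in the other KO mice. Brown adipocyte markers had a sum of 95.4 to 164 in WT mice and of 176 to 424 in KO mice, without overlap and lowest among KO mice in replicate 2. Among their 6 genes none was called, *Cox8b* differed by 2.51 and *Cidea* by 1.02, while *Ucp1* differed by -0.56. The part of these cells in the values of *Gys2*, *Pcx* and *Hk2* was not tested. With the 3 arrays of highest B cell level left out, *Gys2* differed by 1.43 (limma adjusted p = 0.0627), *Pcx* by 0.91 and *Hk2* by 0.52. That fit held 2 WT and 3 KO arrays: it lacked WT replicates 1 and 2 and KO replicate 2, and kept KO replicate 4.

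BAT showed a further arrangement, in which *Pck1* and *Pygl* moved in opposite directions and neither passed. Of all genes of BAT, 0.00406% were called higher and 0.0243% lower, and the groups did not overlap for 3.31% with KO above and 3.92% with KO below. The 9 members had a median of 0.10 against 0.00 for all genes, and at unadjusted limma p below 0.05 1 was higher and 1 lower, beside 5.25% and 7.44% of all genes.

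*Pck1* read 11.08, 11.12, 11.12 and 11.07 in WT and 10.73, 10.74, 10.79 and 10.95 in KO BAT. The WT mice were within 0.1 of each other and every KO mouse lay below them. The difference was -0.29 (SE 0.08, 95% interval -0.47 to -0.12; unadjusted p = 0.00379, limma adjusted p = 0.167). *Pygl* read 9.09, 8.32, 8.31 and 8.0 in WT and 9.45, 9.18, 9.04 and 9.44 in KO BAT, and WT replicate 1, the array set apart above, was the only WT array to reach the KO range. The difference was 0.85 (SE 0.21, 95% interval 0.39 to 1.30; limma adjusted p = 0.143), and without that array it was 1.07 with adjusted p = 0.0271, in a fit that called 0.073% of genes higher and 0.252% lower.

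*Hk2* read 7.62, 8.11, 7.30 and 7.40 in WT and 7.34, 7.14, 7.23 and 7.36 in KO BAT (difference -0.34, 95% interval -0.69 to 0.01). *Pcx* differed by 0.12 (-0.07 to 0.31) and *Gys2* by -0.05 (-0.33 to 0.22), where KO replicate 3 read 6.84 and the other KO arrays 7.31 to 7.33. *G6pc*, *Fbp1*, *Slc2a2* and *Pklr* differed by 0.18, 0.10, 0.14 and -0.00, all near or below the table median.

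No pathway gene passed in BAT, while 10 were higher and 15 lower at unadjusted limma p below 0.05. Those with the smallest p all lay lower in every KO mouse. *Gk*, which phosphorylates glycerol, read 6.71, 8.63, 7.90 and 8.34 in WT and 6.24, 6.54, 6.16 and 6.33 in KO mice (-1.58, limma adjusted p = 0.125), and without WT replicate 1 it passed (-1.97, adjusted p = 0.0037), as did the transketolase gene *Tkt*, which was higher. *Ppargc1a*, the coactivator PGC-1α, differed by -1.14 (adjusted p = 0.130) and *Cebpb*, a cAMP-responsive factor, by -0.70 (adjusted p = 0.136). Skeletal muscle markers set 3 arrays apart, with sums of 1263 and 2159 in WT replicates 2 and 3 and 2501 in KO replicate 2 against 72 to 134 in the others. The adipocyte sum was lower in every KO array (5864 to 6179 in WT, 5335 to 5581 in KO mice), and no gene of the list was called. *Cidec* differed by -0.56, *Plin1* by -0.29, *Adipoq* by -0.14, *Lipe* by -0.08, *Lep* by -0.01 and *Fabp4* by 0.04. The brown adipocyte sum was 6916 to 7954 in WT and 6607 to 7047 in KO mice, again with no call. *Elovl3* differed by -1.13, *Dio2* by -1.05, *Cidea* by -0.31, *Ppargc1b* by -0.26 and *Ucp1* by -0.21. *Cox8b* went the other way and was higher in every KO array, by 0.16. The part of these levels in the *Pck1* difference was not tested. Without the 3 arrays of highest muscle marker level, which left 2 WT and 3 KO arrays, *Pck1* differed by -0.25 and *Pygl* by 0.76.

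**Figure D5:**
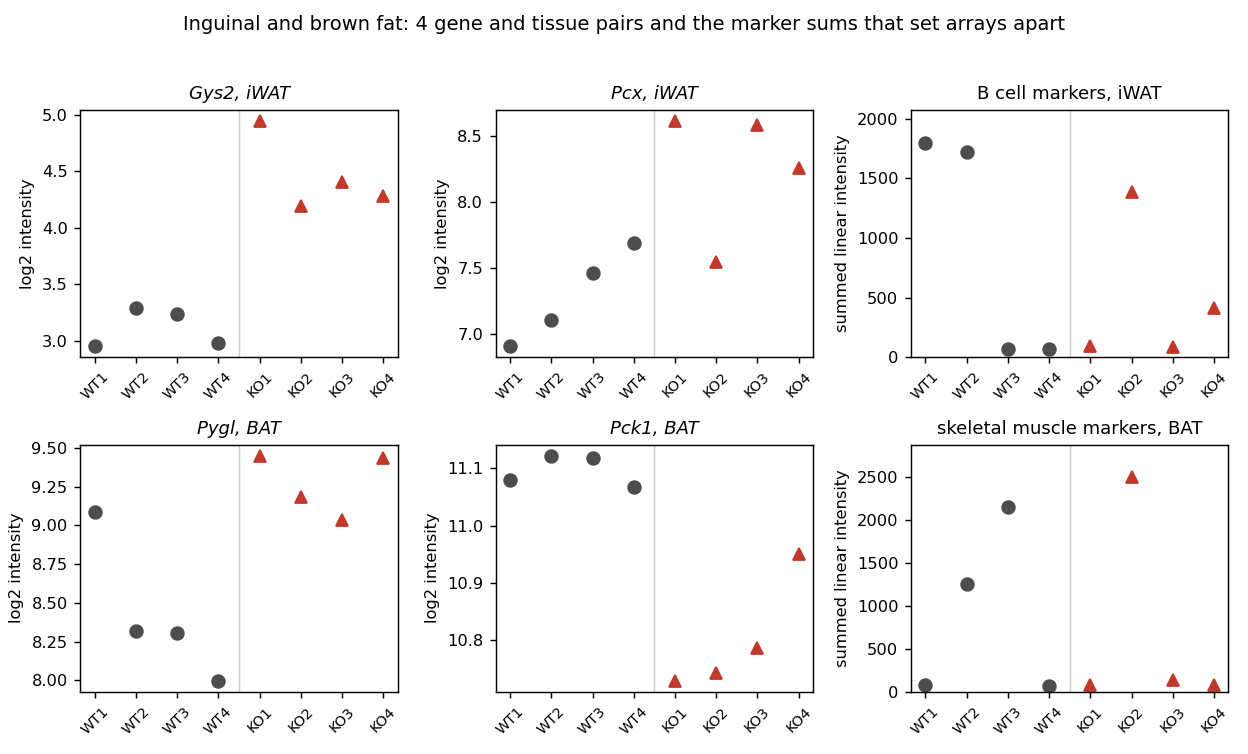
Array by array: log2 intensity of *Gys2* and *Pcx* in iWAT and of *Pygl* and *Pck1* in BAT, with the summed linear intensity of B cell markers in iWAT and skeletal muscle markers in BAT (vertical axes). The KO arrays of *Gys2* (4.19 to 4.94) stand above the WT arrays (2.96 to 3.29), and WT1 is the WT array near the KO range for *Pygl*.

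Across the 32 arrays, each centred on its tissue, the members that were called in eWAT ran together: Pearson's r was 0.79 between *Pcx* and *Hk2*, 0.76 between *Pck1* and *Hk2*, 0.73 between *Pck1* and *Pcx* and 0.71 between *Pcx* and *Pygl*. These values describe arrays that share mice, genotype and cell make-up and carry no test. Genotype was not removed, so the shared rise in KO eWAT, by which these genes were picked, enters r. *Pygl* was less like *Pck1* (0.52) and *Hk2* (0.49), and *G6pc*, *Fbp1*, *Pklr* and *Slc2a2* stayed at 0.41 or below with every other member.

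The genes most like each member over all 24646 were then listed by the same r. *Pcx* ran closest with *Arl4a* (0.942) and *Echs1* (0.936), an enzyme of mitochondrial fatty acid oxidation, *Pygl* with *Acaca* (0.892), the acetyl-CoA carboxylase that starts fatty acid synthesis, and *Hk2* with *Tnks1bp1* (0.892) and the lipid droplet gene *Plin1* (0.883). Within single tissues of 8 arrays these values varied: *Pygl* with *Acaca* had 0.993 in BAT, 0.945 in eWAT, 0.715 in iWAT and 0.480 in liver, and *Pcx* with *Echs1* had 0.863, 0.970, 0.973 and -0.37 in the same order. *Pck1* was most like *Bckdhb* (0.876), a subunit of the branched-chain ketoacid dehydrogenase, and *Apol6* (0.867). *Gys2* came closest to *Slc25a10* (0.808), the mitochondrial dicarboxylate carrier, and *Thap4* (0.735). For *G6pc* the nearest were *Igfbp1* (0.796), a secreted liver protein that rises with fasting, and *Gdf15* (0.732). *Pklr* had *Lect2* (0.749) and *C730002L08Rik* (0.732), *Fbp1* had *Jph3* (0.706) and *Qdpr* (0.694), and *Slc2a2* had *Maff* (0.615) and *Tmem189* (0.611). The second gene for *Pygl* was *LOC100861787* (0.864).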

How the data were processed

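RNA from liver, eWAT, iWAT and BAT of 4 WT and 4 KO male mice was hybridized to Affymetrix GeneChip Mouse Gene 2.1 ST arrays from 100 ng of total RNA. The authors deposited 1 table per tissue with 1 log2 value per gene symbol and array, already normalized; the software, probe summary and normalization are not given in the sources used here. Array medians within a table differed by less than 0.1. The number of arrays, and not a read depth, limits the precision. Rows without a usable gene name, 1 or 2 per table, were left out.

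The 9 genes, the 7 pathway lists (123 genes) and the 12 marker lists (73 genes) were chosen with earlier results of these data known. From the deposited log2 values each tissue was fitted alone, KO minus WT over all 24646 genes, with limma 3.58.1 (lmFit and eBayes, R 4.3.3) and Benjamini-Hochberg adjustment, and an adjusted p below 0.05 was called. The fit was checked on data with known changes. Limma p-values judge the KO minus WT difference against the spread between mice, moderated over all genes of the tissue. Marker levels are sums of linear intensities. The exact permutation test was two-sided over 70 relabelings. Named genes were the members, *Gpr146*, in each tissue and list the largest rise and fall past the threshold (where none passed, the 3 smallest p), and for each member the 2 genes with the highest r. Other names, such as the further list genes called in eWAT, were chosen after their values were seen. Alternatives were quantile normalization, equal medians, dim genes left out, a trended and robust prior, the replicate block, the methods' t-test and each array left out. Older array symbols of 4 list genes were resolved through RefSeq synonyms. Python 3.11.15 drew the figures.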

Additional observations from a re-analysis of the deposited data

Results flagged for a closer look

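Of 72 groups of 4 arrays (9 genes, 4 tissues, both genotypes), 3 held an array far from the others by Dixon's criterion, which chance meets in about 1 of 20 groups. *Pck1* in KO replicate 2 read 10.25 in eWAT and 10.43 in iWAT, with gaps of 0.938 and 0.887 of the range of the group, below the other KO mice in both depots. *Gys2* in KO replicate 3 of BAT read 6.84, with a gap of 0.967 of the range.

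For *Pck1* every KO array was higher in eWAT and lower in BAT, and the log2 changes differed by 1.24. For *Pcx* every KO array was higher in eWAT and lower in liver, and the log2 changes differed by 1.53. These differences between tissues were not tested, because the tables were scaled separately and mice with the same number are not stated to be the same animals.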

How the results depend on the processing

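Among the settings other than leaving out each array in turn, the 4 members called in eWAT kept their calls under all but the methods' t-test, which called 0 of 9 members (adjusted p 0.0645 to 0.0869; unadjusted, 5 were higher) and 0 of 123 pathway genes in eWAT, and 0 in liver, iWAT and BAT. Liver pathway calls went from 1 to 2 with equal medians, dim genes left out or the replicate block. Whether mouse numbers pair the samples was not settled. For this, each array was taken as its deviations from the mean of its genotype. Correlations of these deviations between same-numbered WT and KO arrays ran from -0.38 to 0.67, both in iWAT. The best match of an array in the other genotype had its own number for 4 of 8 arrays in liver and in BAT. In eWAT and in iWAT this held for 5 of 8. With the replicate block eWAT had 4 member and 37 pathway calls, and *Gys2* in iWAT had limma adjusted p = 0.0818. Quantile normalization gave 32 pathway genes higher and 12 lower in eWAT, against 24 and 17.

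With each array left out, member calls ranged over 3 to 4 in eWAT, 0 to 2 in iWAT and 0 to 1 in BAT, and pathway calls over 0 to 2 in liver, 14 to 58 in eWAT, 0 to 9 in iWAT and 0 to 2 in BAT. Over all genes of eWAT the calls ran from 380 higher and 1068 lower without WT replicate 2 to 1924 and 3505 without KO replicate 2. The signs that turned were those of uncalled changes, the largest of them *G6pc* in liver (-0.30 with all arrays), which turned without WT replicate 1 or KO replicate 1. Under quantile normalization *Fbp1* in eWAT became -0.0026, and in iWAT *G6pc* became -0.079, *Fbp1* -0.027 and *Slc2a2* -0.087. With equal medians *G6pc* and *Slc2a2* in iWAT became -0.015 and -0.021. Chosen after seeing the data, leaving out the B cell-marked iWAT arrays gave *Fbp1* -0.048 and *Slc2a2* -0.025, and leaving out the muscle-marked BAT arrays gave *Pklr* 0.085. Leaving out single arrays gave ranges across 0 for *G6pc* (-0.58 to 0.023), *Pck1* (-0.096 to 0.23) and *Gys2* (-0.17 to 0.054) in liver, *Gys2* in eWAT (-0.31 to 0.19), *G6pc* (-0.029 to 0.053), *Fbp1* (-0.027 to 0.17) and *Slc2a2* (-0.030 to 0.029) in iWAT, and *Fbp1* (-0.012 to 0.16), *Pklr* (-0.035 to 0.050) and *Gys2* (-0.096 to 0.068) in BAT. The cause of these changes was not tested.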
